A study of Mus musculus with 22 samples.

Results

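Type 1 conventional dendritic cells were sought in single-cell RNA profiles of pooled solid organs from aged mice. A droplet barcode of the tissue libraries was taken as a member if it held at least 200 detected genes, at most 25% of its UMIs (unique molecular identifiers, each standing for a captured transcript) in mitochondrial genes, at least 1 UMI of at least 2 of the 5 marker genes Xcr1, Clec9a, Wdfy4, Itgae and Irf8, at least 5 UMIs of Cd74, and no UMI of Ccr7, Cd79a, Cd3e, C1qa or Siglech. This rule took 1642 of the 93055 tissue barcodes that passed the gene and mitochondrial limits (1.76%, exact Clopper-Pearson 95% interval 1.68 to 1.85, counting error only). The series held 179929 barcodes in all. The members were thus chosen by their counts of these 11 genes, which are described here and not tested.

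Type 1 dendritic cells take up dead cells, carry their antigens to lymph nodes and present them on MHC class I to CD8 T cells, which is called cross-presentation. Their development depends on the transcription factors IRF8, BATF3 and ID2. XCR1 is a chemokine receptor, CLEC9A (DNGR-1) binds actin exposed by dead cells, and WDFY4 is needed for cross-presentation of cell-borne antigen. Type 2 conventional dendritic cells present mainly on MHC class II to CD4 T cells, and both types switch on CCR7 when they mature and leave for the lymph node.

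All mice of the tissue libraries carried Prom1-CreERT2, a tamoxifen-inducible recombinase driven by the Prom1 promoter of stem and progenitor cells, and the Rosa26ZSG lineage tag. The genotypes at Nalcn, which encodes a sodium leak channel, were wild type (wt), het and null, so that the effect of its loss outside tumors could be asked. There were 5 wt libraries (males of 571, 571 and 608 days and females of 611 and 654 days), 2 het libraries (both males of 551 days) and 2 null libraries (a male of 552 days and, by its label, a female of 611 days). Each library pooled kidney, liver, lung and stomach with epididymis or uterus. Organs had been marked with hashtag antibodies, whose reads were left unused, and the organ a member came from is therefore unknown here. In the other 2 tissue libraries (a male of 610 days and a female of 647 days) the title disagreed with the strain on the genotype. They entered no comparison between groups but are part of the counts over all tissue libraries.

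The members numbered 218, 404, 141, 206 and 8 in wt replicates 1 to 5, 167 and 75 in het replicates 1 and 2, and 80 and 135 in null replicates 2 and 3. The libraries without a group held 57 and 151. Tests across genes used the 8 grouped libraries with at least 20 members, which left out wt replicate 5. The labels name no individual animals, so p-values measure the spread between libraries. The labels give wt replicates 1 and 2 the same age and sex, and likewise both het replicates, and do not say whether each pair came from separate mice. The median member held 4911 UMIs, but library medians ran from 1892 in null replicate 2 to 14362.5 in wt replicate 1. The title of null replicate 3 names no genotype, and it was taken as null from its strain entry alone. This library, labelled female and with uterus, held 62874 UMIs of the X-inactivation transcript Xist and also 762 of the Y-linked gene Ddx3y, whereas the female wt replicates 4 and 5 held 0 of Ddx3y. Nalcn itself had 0 UMIs among 11250535 member UMIs, which allows up to 0.267 CPM (UMIs of a gene per 1000000 UMIs), and 87 UMIs in all tissue libraries, so its level could not check the genotype labels.

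The most frequent marker pattern did not include Xcr1 or Clec9a. Wdfy4 with Irf8 and none of the other 3 markers accounted for 805 members (49.0%). Xcr1, Clec9a, Wdfy4 and Irf8 together marked 169 members, and all 5 markers 104. In all, 737 members (44.9%) had at least 1 UMI of Xcr1 or Clec9a, the receptors that define the type, and 905 had neither. These 2 sets are called Xcr1/Clec9a members and remaining members. In mm10 Xcr1 lies at chr9:123852315-123862029, Clec9a at chr6:129408862-129424763, Wdfy4 at chr14:32959547-33185508, Irf8 at chr8:120736358-120756694 and Itgae at chr11:73090583-73147446, all protein coding. The Xcr1/Clec9a members held a median of 5 Irf8 and 50 Cd74 UMIs, the remaining members 1 and 25, although the median total was lower in the former (4281 UMIs) than in the latter (5554).

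**Figure D1:**
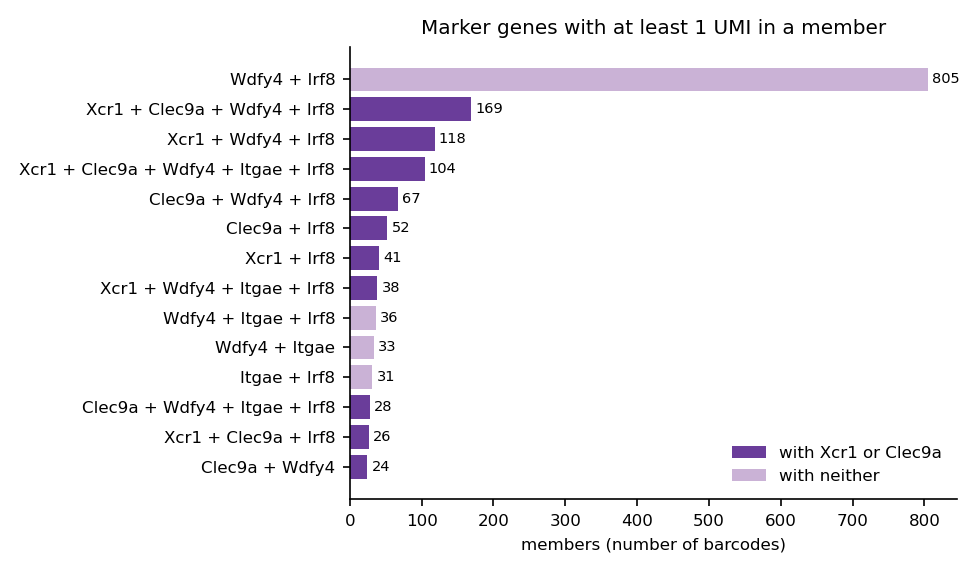
Number of members (x axis) with each combination of marker genes at 1 UMI or more, for the 14 most frequent combinations. Dark bars hold Xcr1 or Clec9a and light bars hold neither; the light Wdfy4 and Irf8 bar (805 members) is the longest.

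The rule also cut through barcodes that carried these receptors. Of 1750 passing tissue barcodes with Xcr1 or Clec9a, 737 (42.1%) were members. A UMI of C1qa alone kept out 572 barcodes that met all other terms, 191 of them with Xcr1 or Clec9a, and Ccr7 alone kept out 206, of which 72 had Xcr1 or Clec9a. At the edge of the marker count, 1013 members had exactly 2 marker genes and 4397 barcodes with 1 stayed outside. At the edge of Cd74, 91 members held 5 or 6 UMIs and 115 barcodes with 3 or 4 stayed outside. No member barcode occurred in more than 1 tissue library. Scrublet, a doublet caller, gave each barcode a score, and the highest scores of each library were marked up to a set share. That share rose with the number of barcodes, from 1.49% in wt replicate 5 to 22.3% in wt replicate 4. Marked were 18.2% of members and 15.6% of Xcr1/Clec9a members. The 16.2% of all passing tissue barcodes followed from the setting.

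The label was borne out by independent marker genes in the Xcr1/Clec9a members, and much less in the remaining ones. Tlr3, the endosomal receptor for double-stranded RNA, averaged 175 CPM in Xcr1/Clec9a members and 21.0 in remaining members over the 8 libraries. Cadm1, an adhesion molecule of this cell type, averaged 181 against 30.1, Batf3 149 against 39.3, and Naaa, a lysosomal amidase, 945 against 278. Each was higher in the Xcr1/Clec9a members of 8 of 8 libraries. Cst3, the cystatin C gene that conventional dendritic cells express strongly, averaged 16714 against 3972 CPM, and Flt3, the growth factor receptor of the lineage, 115 against 22.3. Other genes of the shared dendritic list went the other way. Itgax averaged 130 CPM in Xcr1/Clec9a members against 236 in remaining members, Ly75 57.7 against 107 and Relb 22.9 against 30.1. The choice of members by Xcr1 and Clec9a splits the same cells, so these differences are given without a test.

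Macrophage genes lay on the other side. Marco, a scavenger receptor, averaged 235 CPM in remaining members and 32.0 in Xcr1/Clec9a members. Mrc1, the mannose receptor, averaged 437 against 85.8, Chil3, a chitinase-like protein of alveolar macrophages, 4716 against 980, and Adgre1, which encodes F4/80, 83.6 against 15.5. Igkc, an immunoglobulin light chain, averaged 4625 against 240. Of the 9 macrophage markers the rule used only C1qa, and the other 8 summed to 668 to 3111 CPM in the remaining members of a library and to 202 to 891 in its Xcr1/Clec9a members. The remaining members are therefore named by the rule alone and given no cell type.

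The same genes were read at equal depth. After each barcode was thinned at random to 1000 UMIs, with 35 shallower members left out, Tlr3 was found in 16.3% of Xcr1/Clec9a members, 2.03% of remaining members, 1.85% of a type 2 gate and 0.638% of a B cell gate, which served as the level of free RNA. Unthinned, the shares were 49.3%, 9.50%, 4.16% and 1.70%, at median depths of 4281, 5554, 3310 and 1912 UMIs. Thinned Cadm1 ran at 16.3%, 2.49%, 3.70% and 1.505% in the same order, and Naaa at 56.9%, 21.2%, 13.0% and 2.55%. Thinned Marco was found in 0.693% of Xcr1/Clec9a members, 12.9% of remaining members and 1.20% of B cells. Remaining members thus held Naaa and Marco above the B cell level, while their Tlr3 was near that of the type 2 gate.

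**Figure D2:**
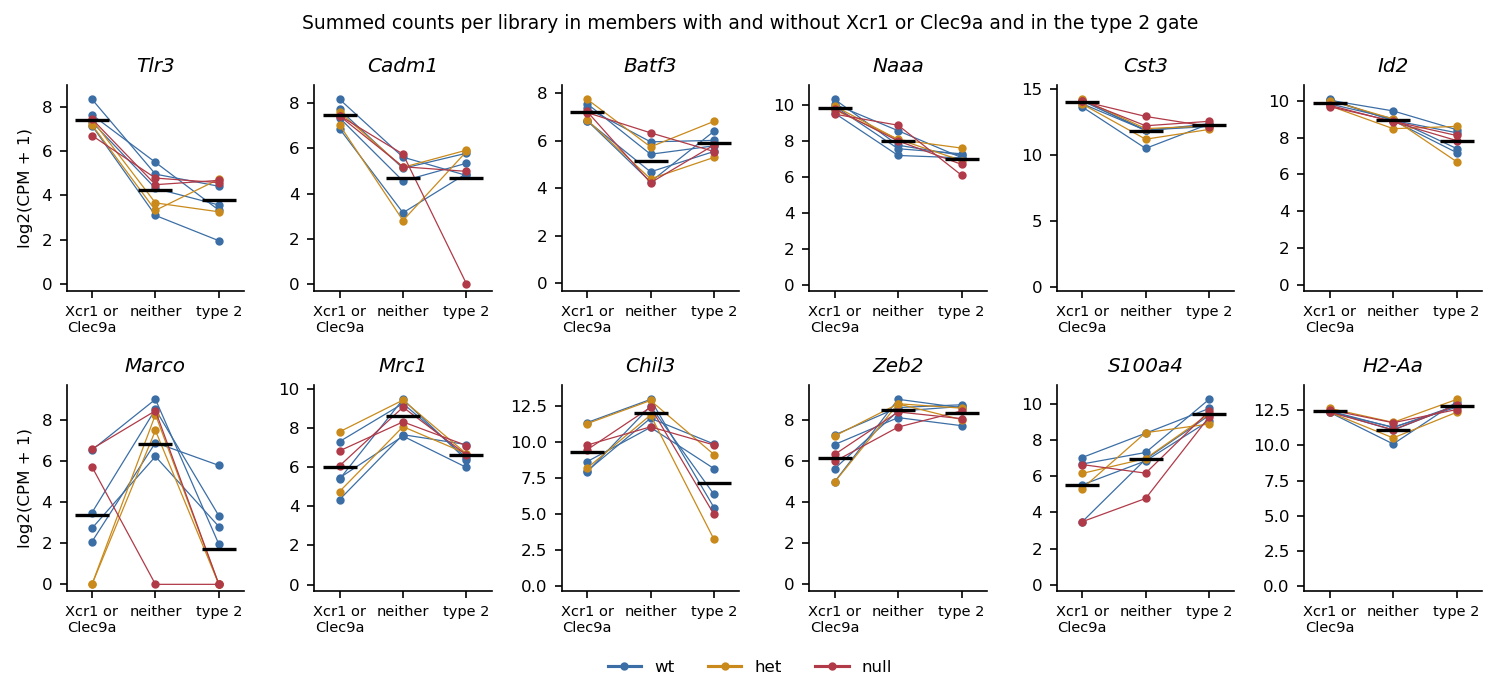
log2(CPM + 1) of 12 genes in counts summed over Xcr1/Clec9a members, remaining members and the type 2 gate of each library (x axis). Points and lines are the 8 libraries by genotype and black bars their means; Tlr3, Cadm1, Batf3, Naaa and Cst3 are highest in the Xcr1/Clec9a members, and Marco, Mrc1 and Chil3 in the remaining members.

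The members were next compared with type 2 dendritic cells of the same libraries. Likeness between populations was not measured, and no macrophage gate was compared. The type 2 gate took barcodes with at least 5 UMIs of Cd74, at least 2 of Cd209a, Clec10a, Mgl2 and Flt3, and none of Xcr1, Clec9a or the 5 excluding genes. It held 505 tissue barcodes. Genes that either gate used were not tested, and the 35 members that met both gates counted as members only. With counts summed per library and gate and the library as a block, edgeR called 906 of 4583 genes (19.8%) for all members, 397 higher and 509 lower. For the Xcr1/Clec9a members it called 557 of 3043 (18.3%), 245 higher and 312 lower. The calls had 324 genes in common, 35.8% of the first set and 58.2% of the second. The leading higher genes of all members were macrophage genes such as Marco (3.85 ± 0.55 log2, 154 against 8.96 CPM) and Chil3 (3.52 ± 0.64), the genes that were also high in the remaining members. The accounts that follow therefore use the Xcr1/Clec9a members, with all members beside them where they differ.

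Of 22 type 1 markers, 4 belong to the rule, 7 fell below the filter on low counts and 11 were tested in the Xcr1/Clec9a members. Among those, 10 were called higher than in the type 2 gate, where 8.05% of all tested genes were. This count supports nothing by itself, since markers such as Sept3 and Tlr3, with 10 and 24 UMIs over the type 2 gates of all 8 libraries, passed the filter through the members, where they are high. Tlr3 was at 140, 158, 197 and 321 CPM in wt replicates 1 to 4, at 143 and 169 in the het and at 102 and 173 in the null libraries. In the type 2 gate it ranged from 2.86 to 25.4, so no library overlapped. The difference was 3.69 ± 0.25 (log2, SE; adjusted p = 8.27e-08, edgeR, higher in 8 of 8 libraries). Tlr3 lies on chromosome 8 at chr8:45395665-45411080 (mm10, minus strand, protein coding).

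Sept3, a septin gene, was higher by 4.40 ± 0.37 (132 against 7.04 CPM) and Ppt1, a lysosomal thioesterase, by 3.69 ± 0.15 (649 against 47.1). Naaa ran from 727 to 1286 CPM in the Xcr1/Clec9a members and from 68.2 to 196 in the type 2 gate, a change of 2.77 ± 0.13 (adjusted p = 7.34e-10, edgeR). Cadm1 was higher by 2.12 ± 0.22 (181 against 37.1 CPM) and Btla, an inhibitory receptor, by 2.00. These genes were higher in 8 of 8 libraries. P2ry14, a receptor for UDP-sugars that was in no list, was higher by 3.84 ± 0.36 (106 against 4.16 CPM). With 13 UMIs over the type 2 gates of all 8 libraries, P2ry14, like Sept3, passed the filter on low counts through the members. Rab7b, a small GTPase of late endosomes, rose by 2.84 ± 0.22. In all members 7 of 12 tested type 1 markers were higher (8.66% of all genes) and Itgb7 was lower (11.1% of all genes).

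The transcription factors separated in both directions. Batf3 was at 113, 113, 163 and 186 CPM in the Xcr1/Clec9a members of wt replicates 1 to 4, at 116 and 212 in those of the het libraries, and at 143 and 148 in those of the null libraries. The type 2 gate held 38.1 to 111, below every one of them, and the change was 1.19 ± 0.17. Id2, an inhibitor of E proteins, was higher by 1.96 ± 0.19 (952 against 244 CPM). Zeb2, a repressor needed for other myeloid and plasmacytoid fates, was lower (log2 change −1.94 ± 0.28, 81.9 against 330 CPM), with Bcl11a, Klf4 and Nfil3 also lower (10.3% of all tested genes were). Zbtb46, the factor shared by conventional dendritic cells, differed by 0.51 and was not called. Of 10 factors tested, 2 were higher and 4 lower (8.05% and 10.3% of all tested genes). Batf3 and Klf4 were not called among all members.

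Of 7 tested type 2 markers 5 were lower and none higher (10.3% and 8.05% of all tested genes), while Sirpa and Lyz2 were not called. This count supports nothing by itself. Itgam and Csf1r held 70 and 94 UMIs over the Xcr1/Clec9a members of all 8 libraries. They passed the filter on low counts through the type 2 gate, where they are high. S100a4, a calcium-binding protein, was at 10.2 to 130 CPM in the Xcr1/Clec9a members and at 469 to 1202 in the type 2 gate. The log2 change was −3.52 ± 0.24 (adjusted p = 8.27e-08, edgeR, lower in 8 of 8 libraries). Itgam, which encodes CD11b, was lower too (−3.39 ± 0.34, 11.6 against 166 CPM), as was Csf1r, the CSF1 receptor (−1.90). The change of Lyz2 was −0.23, and its level in Xcr1/Clec9a members ran from 699 to 6084 CPM. Among all members Lyz2 was called higher. Of the macrophage markers only 2 were tested, Mrc1 (−0.34) and Apoe (−0.36), and neither was called. Since 18.3% of all tested genes were called, a count on 2 genes cannot decide whether macrophage markers differ between the gates. The 8 markers not in the rule summed to 202 to 891 CPM in the Xcr1/Clec9a members and 437 to 682 in the type 2 gate. In the Xcr1/Clec9a members Apoe averaged 281 CPM, Mrc1 85.8, Marco 32.0, C1qb 11.04 and C1qc 5.62, and the rule's term on C1qa bears on the last pair.

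Antigen presentation genes were called in both directions. On the class II side, 5 of 10 tested genes were lower and 1 higher, against 10.3% and 8.05% of all tested genes. H2-Aa, an alpha chain, ran from 5165 to 6293 CPM in Xcr1/Clec9a members and from 5198 to 9773 in the type 2 gate, ranges that overlap, with a log2 change within libraries of −0.40 ± 0.09. The others were H2-Eb1 (−0.50 ± 0.10), H2-Ab1 (−0.24 ± 0.07), H2-DMb2, a chain of the peptide exchange factor (−1.21 ± 0.20), and the cathepsin Ctss (−0.77 ± 0.16). H2-Ob, a chain of the DM inhibitor, was higher by 0.80 ± 0.19 (110 against 67.1 CPM). In all members 8 of 10 class II genes were lower (11.1% of all genes), with a median of −1.13. The class II transactivator Ciita (−0.13) was not called in the Xcr1/Clec9a members.

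On the class I and cross-presentation side, 4 of 12 tested genes were higher and 3 lower (8.05% and 10.3% of all tested genes). Psmb9, an immunoproteasome subunit, was at 266 to 696 CPM against 72.2 to 256 in the type 2 gate, a change of 1.43 ± 0.13. Psmb8 rose by 0.72, and the peptide transporters Tap1 and Tap2 by 1.05 ± 0.18 and 0.94. The heavy chain H2-K1 was lower (−0.24 ± 0.08), as were Cybb (−1.18) and Rac2 (−0.84) of the phagocyte oxidase. In all members none of 14 was higher and 2 were lower, the latter near the 11.1% of all genes. The rule gene Wdfy4 belongs to this list and was not tested.

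Of 5 tested T cell signals 3 were higher and 1 lower, and of 4 sensing genes 3 were higher and none lower, against 8.05% and 10.3% of all tested genes. Havcr2, which encodes TIM-3, rose by 1.07 ± 0.18, and Clec12a, a receptor for uric acid crystals, by 0.59, beside Tlr3. Il18 rose by 1.13 and the costimulator Cd86 by 0.82, as did Btla, Cd83 fell (−0.71) and the chemokine Cxcl16 was not called (−0.28). Among chemokine receptors and adhesion genes, Cadm1 and the integrin Itgal (0.90) rose and Cxcr4 (−1.45) fell, while Ccr2 was level (0.01; 339 against 323 CPM). In all members Ccr2 was among the genes called lower.

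**Figure D3:**
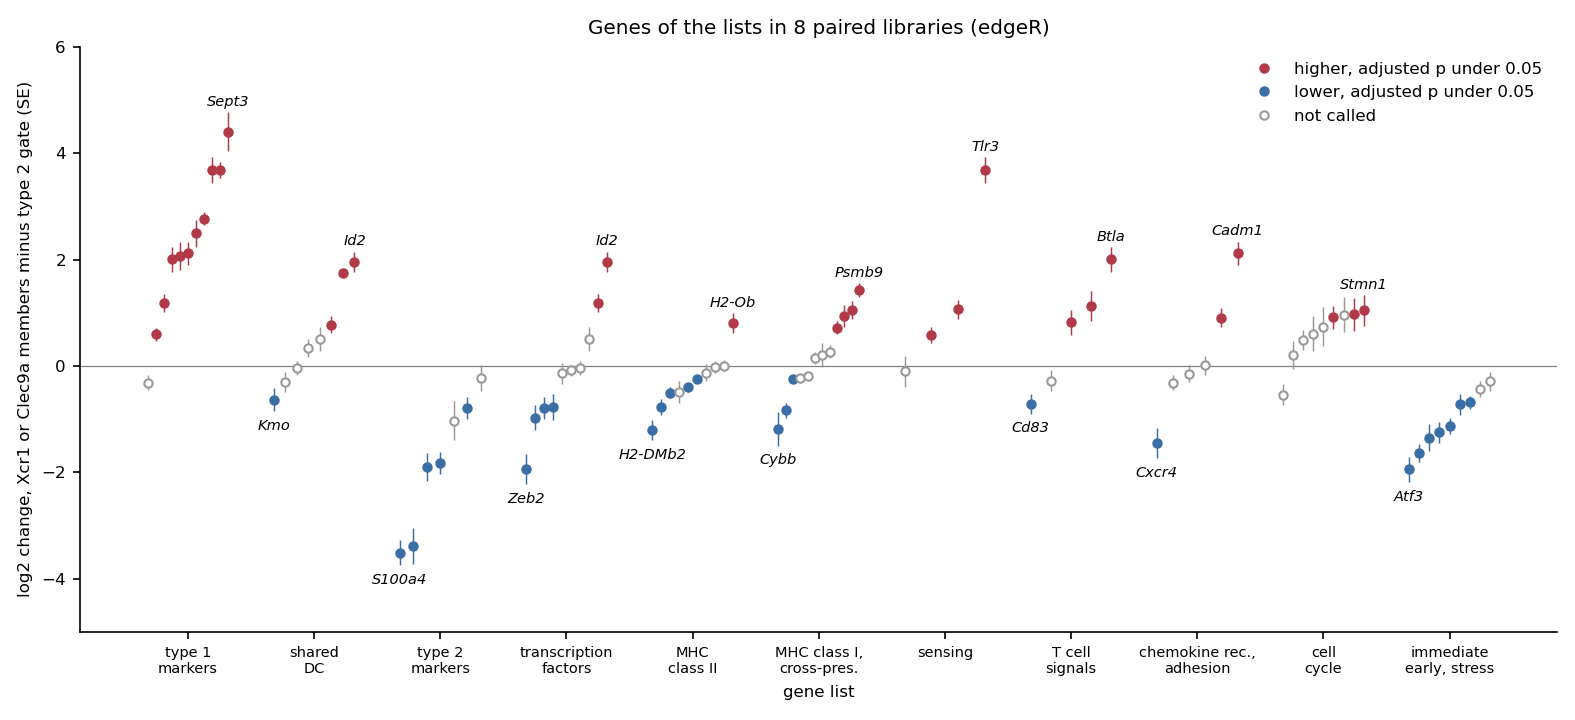
log2 change with SE (y axis) of tested genes by gene list (x axis), Xcr1/Clec9a members minus the type 2 gate, in 8 libraries. Filled red and blue points passed an edgeR adjusted p of 0.05 and open points did not; type 1 markers reach 4.40 (Sept3) and type 2 markers −3.52 (S100a4).

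Proliferation and early-response genes completed the contrast. Of 9 tested cell-cycle genes, 3 were higher (Stmn1 by 1.04, Mki67 by 0.97 ± 0.30 and Hmgb2 by 0.91), with a median of 0.74, where 8.05% of all tested genes were higher. Mki67 or Top2a was seen in 22.3% of Xcr1/Clec9a members, 14.4% of remaining members and 12.1% of type 2 barcodes, and after thinning in 12.0%, 7.12% and 7.61%. The mature gate had 22.0% (11.8% thinned), close to the Xcr1/Clec9a members, and the B cell gate 13.8% (9.28% thinned). Of the 9 immediate-early and stress genes, which respond to tissue dissociation, 7 were lower (10.3% of all tested genes). Atf3 was at 70.6 to 258 CPM in Xcr1/Clec9a members and at 356 to 1300 in the type 2 gate, a log2 change of −1.95 ± 0.24. The whole list summed to 2051 to 3672 and to 4441 to 7540 CPM in the 2 gates, and its part in the other differences was not tested.

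A second comparison set the members against mature dendritic cells, a gate of 440 tissue barcodes with Cd74, Ccr7 and at least 1 of Fscn1, Ccl22, Cacnb3 and Il4i1. edgeR called 1084 of 4258 genes (25.5%) for all members (467 higher and 617 lower) and 940 of 3011 (31.2%) for the Xcr1/Clec9a members (406 higher and 534 lower). In the latter 12 of the 22 type 1 markers were tested and were called higher (13.5% of all genes were), with the same limit, since Sept3, Hepacam2 and Tlr3 held 21, 28 and 31 UMIs over the mature gates. In all members 3 of 11 tested were higher (11% of all genes). Tlr3 was again among the leading genes (3.78 ± 0.39; 175 against 10.2 CPM), and Ccr2, a receptor for monocyte chemokines, was higher by 3.13 ± 0.24 (339 against 31.4).

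Several genes by which dendritic cells address T cells were higher in the mature gate. Il12b, a subunit of interleukin 12, was at 5.60, 9.11, 34.0 and 16.0 CPM in the Xcr1/Clec9a members of wt replicates 1 to 4, at 140 and 0 in the het and at 143 and 0 in the null libraries. It ran from 163 to 1336 in the mature gate, and the log2 change was −4.43 ± 0.40 (adjusted p = 1.52e-06, edgeR, 8 of 8 libraries). Also lower were the chemokine Ccl5 (−5.40 ± 0.55, 61.5 against 2345 CPM), the costimulators Cd40 (−2.93 ± 0.26) and Cd80 (−2.39), the checkpoint ligand Cd274 (−2.13) and the chemokine Cxcl16 (−1.91). Of 11 tested T cell signals 8 were lower and 2 higher (17.7% and 13.5% of all genes), the latter near its share. In all members 8 of 12 were lower (14.5% of all genes). These counts support nothing by themselves. Il12b, Cd40, Cd80 and Cd274 averaged 43.5, 28.7, 28.2 and 37.0 CPM in the Xcr1/Clec9a members. They passed the filter on low counts through the mature gate, where they are high.

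Of 10 maturation markers 4 were tested, Ccl17, Cd63, Socs2 and Tmem123, and were called lower in the Xcr1/Clec9a members (17.7% of all genes were). This count supports nothing by itself, since the rule excludes Ccr7 and the mature gate requires it with another maturation gene. Socs2, at 8.05 CPM in the Xcr1/Clec9a members, also passed the filter on low counts through the mature gate. H2-M2, a nonclassical class I gene, had UMIs in the Xcr1/Clec9a members of wt replicate 1 only among the 8 libraries (4.20 CPM), and was at 64.5 CPM or more in each mature gate. H2-K1 was lower (−1.21, 1070 against 2429 CPM). On the class II side 5 of 10 genes were higher, Ciita by 1.501, H2-DMb1 by 1.19 and H2-DMa by 1.10 among them, and 1 was lower (13.5% and 17.7% of all genes). In all members 1 of 10 was higher (H2-DMb1, 0.68) and 3 were lower, H2-Aa (−0.75), H2-Eb1 (−0.88) and H2-DMb2 (−1.88), while Ciita (0.49) was not called. Of all genes 11% were higher there and 14.5% lower, so the higher count is near its share. Of 9 cell-cycle genes 5 were higher (13.5% of all genes), but Mki67 (0.30, adjusted p = 0.512) and Top2a (1.36, adjusted p = 0.0564, edgeR) were not called. The NF-kB gene Relb was lower (−3.29, 22.9 against 214 CPM).

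The share of members among passing barcodes was then compared between genotypes. In wt replicates 1 to 5 it was 3.67, 2.21, 2.52, 1.58 and 2.79%. The het libraries had 2.23 and 1.85% and the null libraries 0.918 and 1.44%. Both null libraries lay below every wt library, and the het libraries lay within the wt range. This order was lost at a stricter barcode filter (500 genes, 10% mitochondrial), where the null libraries had 2.60 and 3.55% and wt replicates 1 to 4 had 6.63, 3.16, 6.47 and 3.75%. In wt replicate 5 only 34 barcodes passed that filter and 0 met the rule, which allows a share of up to 8.82%. Null replicate 2 stayed below wt replicates 1 to 4, and null replicate 3 did not. The mean was 2.55 ± 0.770% in wt (SD, n = 5), 2.04 ± 0.265% in het (n = 2) and 1.18 ± 0.370% in null libraries (n = 2). The null mean was lower by 1.37 points, with p = 0.0952 in an exact two-sided permutation test, the smallest p this design allows (adjusted 0.190 over 6 tests). For het against wt p was 0.476 and for het with null against wt 0.0794 (exact permutation, adjusted 0.571 and 0.190). No share test passed.

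Depth differed between the groups, and its part in the share was not tested. Median member depth was 1892 and 3617 UMIs in the null libraries against 2826.5 to 14362.5 in wt libraries. The rule was also applied after thinning to 1000 UMIs, a step chosen after seeing the data, which leaves out shallower barcodes and so changes the denominator with the depth. Of the 93055 passing barcodes 73561 were kept, with 4595 of 8710 in null replicate 2 and 5390 of 5941 in wt replicate 1, and 591 (0.803%) met the rule. The wt shares became 0.761, 0.696, 1.36, 1.17 and 0.797%, those of the het libraries 0.485 and 1.02% and those of the null libraries 0.805 and 0.554%. Null replicate 2 then lay within the wt range, and the null minus wt difference was −0.276 points (exact permutation p = 0.381). Of Xcr1/Clec9a members alone, the unthinned share was 1.03 ± 0.191% in wt (n = 5) and 0.622 ± 0.117% in null libraries (n = 2). The null libraries had 0.5396 and 0.7048%, below the 0.811 to 1.30% of the wt libraries. The het libraries had 0.6002 and 1.038%, so het replicate 1 also lay below every wt library, between the null libraries. After thinning, the null libraries had 0.522 and 0.328% and the wt libraries 0.373 to 0.863%. Null replicate 2 then lay within the wt range, and het replicate 1 had the lowest share of the grouped libraries.

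**Figure D4:**
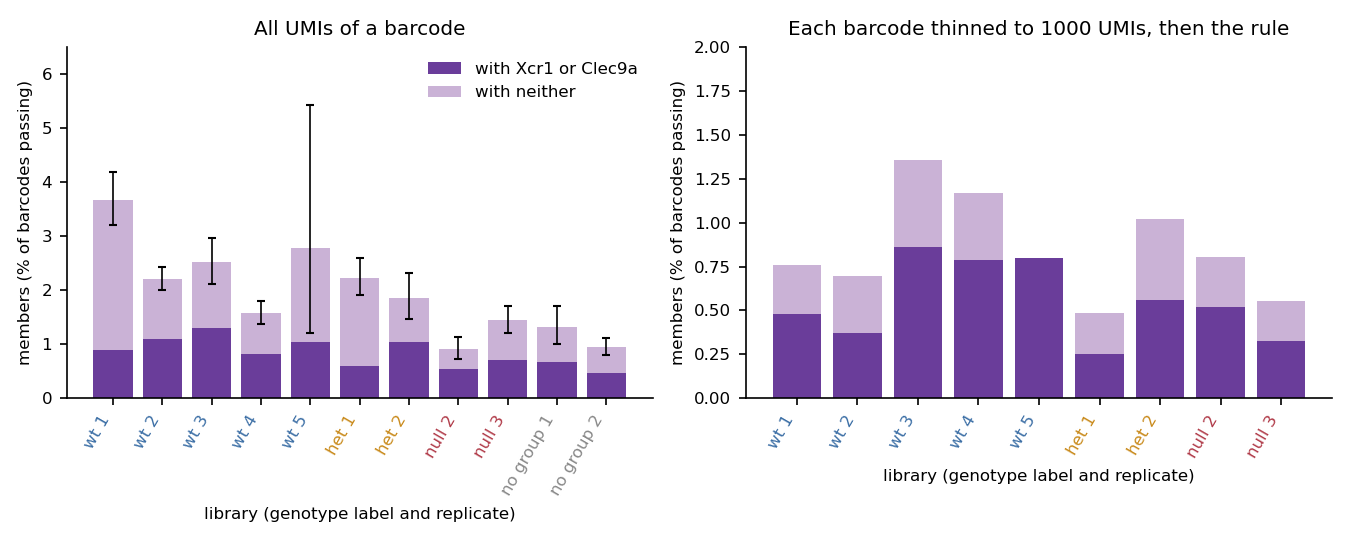
Members as percent of passing barcodes (y axis) in each tissue library (x axis), with all UMIs at left and, at right, among barcodes of at least 1000 UMIs thinned to that number (grouped libraries only), so the denominators differ. Dark parts of a bar are members with Xcr1 or Clec9a, and black bars are exact 95% intervals; both null libraries lie below all wt libraries at left, and null replicate 2 does not at right.

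The balance of members and type 2 barcodes did not pass either. Members made up 79.6 ± 6.19% of members plus type 2 barcodes in wt libraries (n = 5), 79.4 ± 14.04% in het (n = 2) and 71.7 ± 2.44% in null libraries (n = 2), with exact permutation p = 0.952 and 0.0952 against wt. The remaining members have no cell type here, so this is not a balance of dendritic types. With Xcr1/Clec9a members alone it was 54.1, 58.0, 62.9, 62.0 and 75.0% in wt replicates 1 to 5. The het libraries then had 69.2 and 56.0% and the null libraries 61.8 and 53.2%, with null replicate 2 within the wt range. The part of the members with Xcr1 or Clec9a was 24.3% in wt replicate 1 and 26.9% in het replicate 1, and 37.5 to 58.8% in the other 7 grouped libraries. Macrophage genes over all members were also uneven: the 8 markers not in the rule summed to 443 to 2083 CPM in wt libraries, to 1216 and 770 in the het and to 1181 and 1199 in the null libraries.

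Few genes were called between null and wt members. edgeR with sex as covariate called 15 of 7546 genes (0.199%), all higher in the null libraries, and 4 of 4816 (0.0831%) in the Xcr1/Clec9a members. Gpx5, a glutathione peroxidase secreted by the epididymis, was at 18.2, 11.2, 0 and 0 CPM in the Xcr1/Clec9a members of wt replicates 1 to 4, at 18.3 and 30.3 in those of the het libraries, and at 850 and 1579 in those of the null libraries. The null libraries stood above all others, but 1 barcode held 192 of the 273 UMIs of the 15 genes in these members of null replicate 2 and another 1565 of 1750 in null replicate 3. The change was 6.89 ± 0.66 (adjusted p = 0.00306, edgeR). The defensin genes Spag11b and Defb20 rose by 6.85 and 6.79. No gene of the type 1, shared dendritic, MHC or interferon lists was among the 15.

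Other gates of the null libraries held these transcripts too. Summed over the 15 genes, members of wt replicates 1 to 4 held 79.4, 46.5, 45.6 and 6.19 CPM, het members 131 and 104, and null members 24433 and 9526. Over all their barcodes the null libraries held 17778 and 16616 CPM and the het libraries 6228 and 9131. In the null libraries the B cell gates held 2169 and 2218, and the endothelial gates 5661 and 6751. Outside them, the endothelial gate of het replicate 1 held 2153 CPM, and wt replicate 1 over all its barcodes 2310. In null replicate 2, 97.8% of the 4241 UMIs lay in 5 of 80 members, and in null replicate 3, labelled with uterus and not epididymis, 93.3% of 5006 in 5 of 135. Without null replicate 2 edgeR called 1 gene and without null replicate 3 it called 10.

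The one dendritic gene called was Ccl17, a chemokine for CCR4-bearing T cells and a maturation marker. In the Xcr1/Clec9a members it was at 56.0, 123, 146 and 32.1 CPM in wt replicates 1 to 4, at 487 and 290 in the het libraries, and at 809 and 243 in the null libraries. Each het and null library was above each wt library. The null change was 2.95 ± 0.41 (adjusted p = 0.0461, edgeR, 4 wt and 2 null libraries), while in all members it was 2.28 ± 0.42 (adjusted p = 0.137) and did not pass. Over 19 settings of the test the log2 change ran from 1.26 to 2.95, so this value is the highest of them, and it passed in 3. Without the sex covariate the call in the Xcr1/Clec9a members was lost (adjusted p = 0.639, edgeR). Ccl22, which acts on the same receptor, had 35.0, 70.0, 119 and 16.0 CPM in wt libraries, with 338 and 73.5 in het and with 379 and 132 in null ones, and was not called in these members (2.61 ± 0.66, adjusted p = 0.912, edgeR). Over the same 19 settings it passed in 2. Median depth of these members was 1862 and 3543.5 UMIs in the null and 2652.5 to 11112 in the wt libraries, and its part in this result was not tested. The type 2 gate held 54.2 to 188 CPM of Ccl17 in wt libraries, 591 and 119 in the het and 341 and 318 in the null libraries.

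No gene was called between het and wt members. Of the 7546 genes 207 had an unadjusted p under 0.05 by edgeR, and DESeq2 called 2. Whether the null change differed between members and type 2 barcodes was tested as an interaction, in which edgeR called 0 of 4583 genes and 145 had an unadjusted p under 0.05. Of the type 1 markers 16 were tested in the null and het fits and none passed. Of all tested genes 0.199% and 0% passed, so these counts are near the shares. The median log2 change of the markers was 0.06 in null and 0.03 in het libraries, against −0.02 and 0.01 over all genes. These fits took all members, and the remaining members have no cell type here. Interferon-stimulated genes had a median of −1.56 in null libraries, with 0 of 15 called, near the 0.199% of all genes.

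In this last list 1 library stood apart. The 16 interferon-stimulated genes summed to 607, 1995, 455 and 613 CPM in the Xcr1/Clec9a members of wt replicates 1 to 4, to 301 and 415 in the het libraries, and to 307 and 547 in the null libraries, and wt replicate 2 stood far above the others. Isg15, a ubiquitin-like modifier, was at 408 CPM there and at 0 to 82.2 elsewhere. Among the 8 libraries it was also highest in its type 2 gate (2257 CPM), mature gate (2394) and B cell gate (1109), but not in its endothelial gate, where it held 1583 CPM against 1561 to 1975 in wt replicates 1, 3 and 4.

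**Figure D5:**
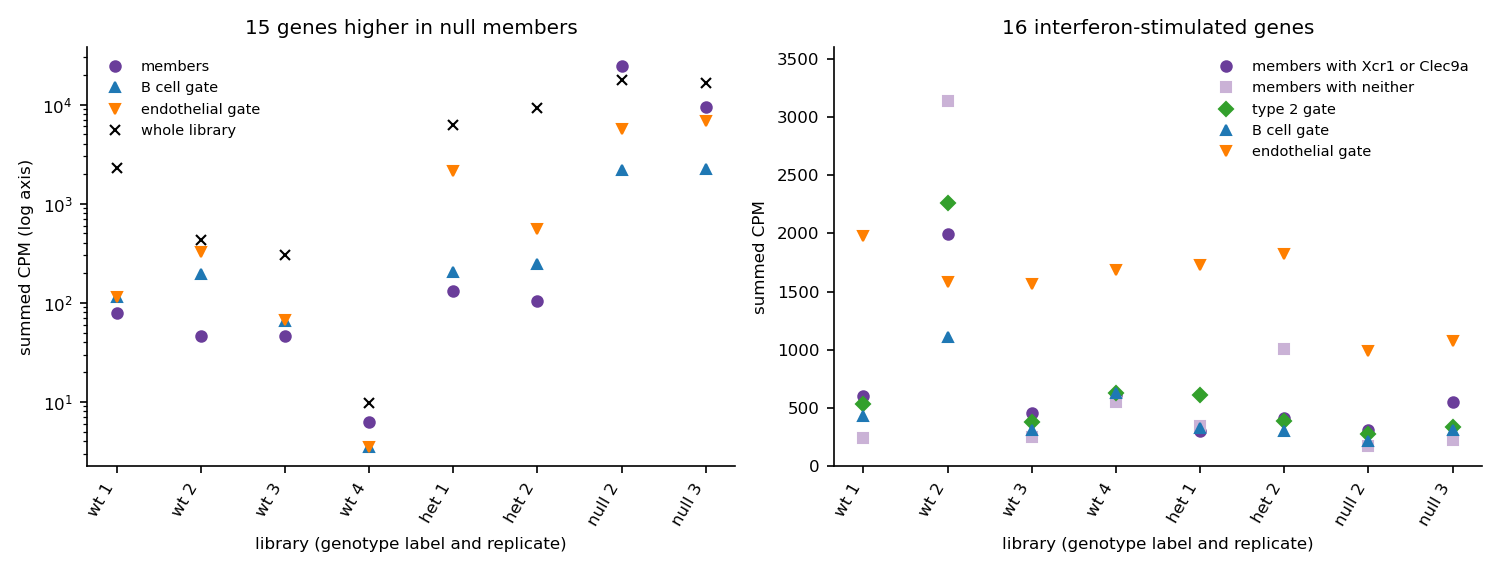
Summed CPM by library (x axis) of the 15 genes higher in null members (left, log axis) and of 16 interferon-stimulated genes (right), in members and other gates. The 15 genes are high in every gate of the 2 null libraries, and the interferon genes are high in the immune gates of wt replicate 2.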

How the data were processed

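The UMI counts, whole numbers for each gene in each barcode, were used as the authors deposited them in filtered matrices, with 31053 genes and no normalization. Per the labels and methods, cells were captured with 10x Chromium 3′ chemistry, and the submitters' processing notes name Cell Ranger 2.1.1, Seurat and build mm10; the matrix headers name 3.0.2. Total UMIs per grouped tissue library ran from 8571019 to 139793927. Coordinates came from GENCODE vM21.

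The rule, the gates and the gene lists were chosen with earlier results of these data known. Cd74 was read as at least 5 UMIs beside the marker genes, not as a sixth marker. Counts were summed per library and gate, where a gate held at least 20 barcodes, and tested with edgeR 4.0.16 (TMM, filterByExpr, quasi-likelihood test, Benjamini-Hochberg over all genes tested; R 4.3.3, limma 3.58.1). Members were compared with the type 2 and mature gates with the library as block, and genotypes in 1 fit with sex as covariate. Shares were compared with exact permutation tests over libraries. Replicate pairs differed (lowest chi-square per degree of freedom 81.0), so none was merged. Doublets, the highest Scrublet scores of each library (scanpy 1.11.5, set share 0.8% per 1000 barcodes), were kept and removed only as an alternative. The genes named were list members and the 10 largest called changes in each direction with at least 50 CPM in 1 arm and the same direction in every library, or no overlap of groups; genes outside this rule, among them those shown for the split of the members, were chosen after their values were seen. Alternatives covered DESeq2 1.42.0, RLE size factors, no low-count filter, stricter barcodes and markers, thinning to 1000 UMIs, and leaving out each library. The code was tested on simulated data. Sequences were not needed and none is printed. One result is not reported here.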

Additional observations from a re-analysis of the deposited data

Results flagged for a closer look

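Within the wt libraries, 22 of 153 groups of values (14.4%) had a library standing apart by Dixon's test, and the libraries concerned were wt replicates 1 to 4. For independent groups chance gives about 1 in 20. These groups overlap, since genes were read both in all members and in the Xcr1/Clec9a members. Some genes were also chosen after their values were seen, so 14.4% cannot be set against 1 in 20. All comparisons in this paragraph and the next are among the wt libraries. In wt replicate 2 the interferon-stimulated genes were the highest: over all members the list summed to 2641 CPM, with Isg15 at 491, Rsad2 at 516 and Irf7 at 213, and in the Xcr1/Clec9a members to 1995, with Isg15 at 408, Rsad2 at 214 and Irf7 at 226.

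In wt replicate 1 the class II genes were the lowest, at 7391 CPM for the list over all members (H2-Aa 1920 and H2-Eb1 1252) and at 16998 in the Xcr1/Clec9a members (H2-Eb1 3809). In the same library macrophage-associated genes were the highest, with Csf1r at 107 CPM over all members and Marco at 91.1, Mrc1 at 157 and Chil3 at 2606 in the Xcr1/Clec9a members. Its Xcr1/Clec9a members also had the lowest Cd40 (14.01 CPM) and the highest H2-M2 (4.20). The other values standing apart were Rab7b at 391 CPM in wt replicate 3, Tap1 at 359 in wt replicate 4, both in the Xcr1/Clec9a members, and Cd80 at 26.3 CPM over all members of wt replicate 4.

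Barcodes that met the rule were also present in the libraries of sorted circulating cells with the ZsGreen lineage tag, labelled as non-tumour (10 libraries of all 3 genotypes and both sexes, 551 to 649 days old). There 129 of 2109 passing barcodes met it (6.12%, exact 95% interval 5.13 to 7.23, counting error only), and 125 of these had no Xcr1 or Clec9a. Single libraries of this kind ran from 0 of 11 in wt replicate 3 and 0 of 161 in het replicate 3 to 37 of 284 (13.0%) in null replicate 2. With Xcr1 or Clec9a 4 barcodes remained (0.190%, 0.0517 to 0.485). In the library of blood mononuclear cells, from a wt male of 120 days and so much younger, 0 of 679 met it, which allows a share of up to 0.442% by a limit of 3 counts.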

How the results depend on the processing

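Against the type 2 gate, 906 genes were called. The count was 557 with only Xcr1/Clec9a members, 598 with at least 3 marker genes, 378 of 4020 tested with a stricter barcode filter (500 genes, 10% mitochondrial), which left 5 libraries with enough barcodes, and 306 of 1306 tested after thinning to 1000 UMIs, with 7 libraries, against 4583 tested and 8 libraries. Without the low-count filter 1273 were called, 859 higher and 414 lower, against 397 and 509. With Xcr1/Clec9a members or with 3 markers the direction turned for Mrc1 (−0.34 and −1.13), Lyz2 (−0.23 and −0.68) and Ccr2 (0.012 and 0.12). Leaving out a library gave 649 to 957. Against the mature gate, 1746 genes were called without the filter, 793 to 1178 with a library left out, and Xcr1/Clec9a members turned Mrc1 (−0.0086), Igkc (−1.05) and H2-Aa (0.014). Null against wt gave 31 genes with DESeq2, 100 without the filter, 4 with Xcr1/Clec9a members, 1 with at least 3 markers, 26 without the sex covariate, and 3 with Xcr1/Clec9a members and no sex covariate. It gave 1 to 25 with a library left out, 1 without null replicate 2 and 25 without wt replicate 1. Het against wt gave 2 genes with DESeq2, 146 without the filter and 0 to 0 with a library left out; the interaction gave 0 to 1, with 1 without wt replicate 1.

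With the replicate block in place of sex, 18 genes were called for null and 1 for het. The labels do not tie equal numbers to 1 animal or batch, and deviations of equal numbers correlated between −0.07 and 0.45, so the libraries were not taken as paired.

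No share difference passed after adjustment in any setting run (lowest adjusted p = 0.143, exact permutation). Null minus wt ran from −1.63 to −1.09 points of passing barcodes with a library left out, het minus wt from −0.757 to −0.234, and both together from −1.19 to −0.664. The share of members among members plus type 2 barcodes ran from −9.68 to −5.64 for null, from −10.2 to 9.68 for het and from −8.70 to −1.79 for both. For het it turned to 0.212 with Xcr1/Clec9a members, 0.643 with 3 markers, 0.720 without doublets, 0.560 without wt replicate 1, 2.06 without wt replicate 5 and 9.68 without het replicate 2. At the stricter barcode filter het minus wt was 0.0314 points and the null balance 1.57, and null minus wt was −0.926 points with wt replicate 5 counted at 0 of 34 barcodes. Without wt replicate 5 at that filter, a step added after seeing the data, null minus wt was −1.93 points (exact permutation p = 0.267), het minus wt −0.969 and the null balance again 1.57. The blood share fell to 0.190% with Xcr1 or Clec9a. Thinning, the blood split and the fit of Xcr1/Clec9a members without sex were chosen after seeing the data. The cause of these changes was not tested.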

Other observations

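The 2 tissue libraries whose labels disagree on genotype held 57 members among 4323 passing barcodes (1.32%) and 151 among 15974 (0.945%), and 50.9% and 49.0% of these had Xcr1 or Clec9a. In their Xcr1/Clec9a members Tlr3 was at 220 and 175 CPM, Cadm1 at 232 and 201, and Batf3 at 292 and 185. Ccl17, the gene called between null and wt, was at 0 and 124 CPM there. The interferon-stimulated genes summed to 637 and 1226 CPM. Marco was at 0 and 77.2 CPM and Chil3 at 0 and 803.

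UMIs of cell-cycle genes were read per barcode, a measure that rises with depth and for which no background share per library was set. Mki67 or Top2a had a UMI in 37.7% of the Xcr1/Clec9a members of wt replicate 1, and in 19.1, 26.0 and 24.5% of those of wt replicates 2 to 4. The het libraries had 17.8 and 28.6% and the null libraries 21.3 and 18.2%. Thinned to 1000 UMIs, wt libraries had 17.0, 8.04, 17.8 and 14.4%, het libraries 9.30 and 22.0% and null libraries 11.4 and 9.09%, so the genotypes overlapped. Over all tissue libraries, 2.83% of 247 plasmacytoid barcodes held either gene.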
